A study of Rattus norvegicus with 9 samples.

Results

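The early complement components described here are 10 genes. They are the 3 chains of C1q (C1qa, C1qb and C1qc), the proteases C1r and C1s, the components C2, C3, C4a and C4b that follow them, and Serping1, which encodes the C1 inhibitor. They were taken by gene symbol from a table of 23768 genes, in which all 10 were present, and all 10 passed the filter on low counts that left 16816 genes. These genes, and the contrast of the C1q chains with C1r and C1s, were chosen with earlier results on the differences between the same groups in view. Their levels and fold changes between the groups are therefore a description and carry no p-value.

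The RNA came from tibiae of male Sprague Dawley rats (Rattus norvegicus) and was sequenced as total RNA in 9 libraries, 3 per group. The groups are Model, with the replicates numbered 1, 2 and 5, and GelMA and PMLGH, each with the numbers 2, 3 and 4. The series title speaks of a peptide that imitates the enzyme LOX, which starts the cross-linking of collagen, and of the healing of bone in diabetes. In biomaterials GelMA commonly stands for gelatin methacryloyl, a modified gelatin from which hydrogels are cast. The meaning of PMLGH is not in the labels, which also do not say what the Model animals underwent and give no age, no time of sampling and nothing on what the groups share. The labels do not say that replicates are separate animals, so the spread between libraries may be technical in part, and a batch that coincides with a group cannot be told apart from it. The libraries held 34571478 to 37166383 counts. Among the Model libraries, Model 2 was the odd one: the chi-square between its counts and those of Model 1 and 5 averaged 33.0 and 27.7 over genes, where that between Model 1 and 5 averaged 15.7. The label tibia was checked against markers of osteoblasts, of which all 8 were tested, with Ibsp, a sialoprotein of bone matrix, at 774 CPM and Bglap, which encodes osteocalcin, at 252 CPM in Model. CPM is the count of a gene scaled to the size of its library, here with TMM factors. Markers of red cell precursors were lower in GelMA and PMLGH. All 8 fell in both comparisons with Model (edgeR, adjusted p under 0.05), where 9.88% of all tested genes fell in GelMA and 11.9% in PMLGH. Their summed level was 75225 to 82996 CPM in Model, 56694 to 64601 CPM in GelMA and 55485 to 64335 CPM in PMLGH.

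Complement is a cascade of plasma and tissue proteins that tags surfaces and debris for removal. In its classical pathway C1q, a molecule built from 3 kinds of chain that each carry a collagen-like stalk and a globular head, binds antibody, pentraxins or dying cells and switches on C1r, which cuts C1s, which in turn cuts C4 and C2. The C4 and C2 fragments form the enzyme that cuts C3, and the C1 inhibitor blocks C1r and C1s. The liver makes most of the circulating C1r, C1s, C2, C3 and C4, whereas C1q comes mainly from macrophages and dendritic cells, and stromal cells such as fibroblasts make C1r and C1s locally.

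Per unit of gene length the C1q chains were the most abundant of the 10 genes in each group. In FPKM, fragment counts scaled to gene length and library size, C1qa stood at 185 ± 8.6 (SD, n = 3) in Model, C1qc at 175 ± 9.2 and C1qb at 139 ± 12. Serping1 at 61.4 ± 1.6 FPKM, C3 at 54.7 ± 14 and C2 at 50.02 ± 3.96 followed, and C1r stood at 26.8 ± 1.1. C1s at 10.4 ± 0.42 FPKM, C4a at 9.77 ± 0.63 and C4b at 5.67 ± 0.80 were the lowest. Within Model the ranges of C1qa and C1qc overlapped, those of C3 overlapped with Serping1 and with C2, and those of C1s and C4a overlapped, so neighbours in these pairs were not separated by their spread. In both GelMA and PMLGH the order of levels had changed in the same 1 place, with C2 above C3. C2 stood at 75.6 ± 2.7 FPKM in GelMA and 98.8 ± 3.3 in PMLGH, and C3 at 60.7 ± 4.1 and 74.2 ± 10. C1s, at 29.7 ± 1.2 FPKM in GelMA and 41.2 ± 2.9 in PMLGH, then stood well above C4a at 12.7 ± 0.50 and 15.2 ± 0.20.

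The C1q chains differed little from Model in either group, but each was higher in PMLGH than in GelMA without overlap. C1qa, the chain named A, was at 179, 192 and 192 CPM in Model 1, 2 and 5, at 180.3, 162 and 185 CPM in GelMA 2, 3 and 4, and at 206, 208 and 216 CPM in PMLGH 2, 3 and 4. The PMLGH libraries were the highest and did not overlap with the others, while GelMA and Model overlapped. C1qb, the chain named B, was at 149, 165 and 141 CPM in Model, at 150.4, 129 and 144 CPM in GelMA, and at 179, 166 and 180.4 CPM in PMLGH. Its lowest PMLGH library, at 166 CPM, lay just above the highest Model library, at 165 CPM. C1qc, the chain named C, was at 177, 192 and 179 CPM in Model, at 164, 155 and 161 CPM in GelMA, and at 208, 202 and 208 CPM in PMLGH. Here the 3 groups did not overlap at all, with GelMA lowest and PMLGH highest. The fitted log2 fold changes of PMLGH against Model were 0.16 ± 0.06 for C1qa (± SE), 0.21 ± 0.07 for C1qb and 0.17 ± 0.05 for C1qc. Those of GelMA against Model were -0.09 ± 0.06, -0.11 ± 0.07 and -0.19 ± 0.05, and those of PMLGH against GelMA were 0.26 ± 0.06, 0.32 ± 0.07 and 0.36 ± 0.05. Both comparisons with Model use the same 3 Model libraries.

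The 3 chains, which assemble in equal numbers in the protein, kept nearly the same proportions of RNA in all libraries. Of their summed FPKM, C1qa made up 37.1% ± 1.3 (SD, n = 3) in Model, 38.0% ± 0.83 in GelMA and 36.6% ± 0.77 in PMLGH. C1qb made up 27.8% ± 1.3, 28.3% ± 0.74 and 28.4% ± 0.72, and C1qc 35.1% ± 0.0077, 33.7% ± 0.99 and 35.0% ± 0.40. The largest difference between group means was 1.37 percentage points, for C1qc between GelMA and Model.

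C1r and C1s, the proteases that C1q carries, were higher in both GelMA and PMLGH than in Model by several times the spread between replicates. C1r was at 74.1, 75.8 and 70.6 CPM in Model 1, 2 and 5, at 131, 137 and 133 CPM in GelMA 2, 3 and 4, and at 181, 175 and 169 CPM in PMLGH 2, 3 and 4. C1s was at 33.2, 30.5 and 33.3 CPM in Model, at 91.0, 86.5 and 93.7 CPM in GelMA, and at 133, 131 and 118 CPM in PMLGH. For both genes each Model library lay below each GelMA library, and each GelMA library below each PMLGH library. C1r was 1.81-fold higher in GelMA than in Model (log2 0.86 ± 0.05, SE) and 2.38-fold higher in PMLGH than in Model (log2 1.25 ± 0.05). C1s was 2.79-fold higher in GelMA (log2 1.48 ± 0.07) and 3.93-fold higher in PMLGH (log2 1.98 ± 0.07), the largest difference among the 10 genes. Between PMLGH and GelMA the log2 fold changes were 0.39 ± 0.05 for C1r and 0.49 ± 0.06 for C1s. The ratio of C1s to C1r in FPKM was 0.387 ± 0.031 (SD, n = 3) in Model, 0.596 ± 0.035 in GelMA and 0.638 ± 0.022 in PMLGH. All Model libraries had a lower ratio than the libraries of the other groups, and GelMA and PMLGH overlapped.

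**Figure D1:**
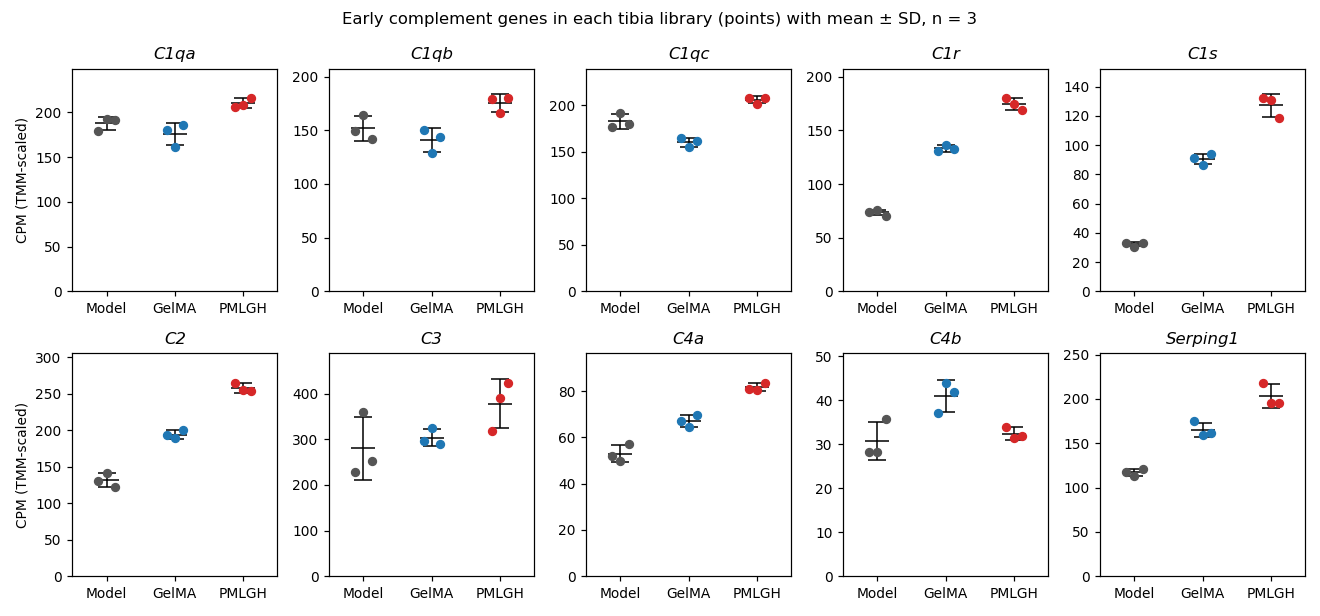
Level of each early complement gene in CPM (y axis, from 0) in the 3 groups (x axis). Points are libraries and bars are the mean ± SD (n = 3). The C1q panels vary little beside that of C1s, with C1qa averaging 188 CPM in Model, 176 in GelMA and 210.1 in PMLGH. C1s averages 32.4 CPM in Model and 127 CPM in PMLGH.

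The proteases and the C1q chains were set against each other within each library, which cancels the scaling of the library. The mean log2 CPM of C1r and C1s minus that of the 3 C1q chains was -1.83 ± 0.08 (SD, n = 3) in Model, -0.53 ± 0.08 in GelMA and -0.40 ± 0.09 in PMLGH. GelMA exceeded Model by 1.30 and PMLGH exceeded Model by 1.43 on the log2 scale, with no overlap in either case. PMLGH exceeded GelMA by 0.13, and those libraries overlapped. For C1s alone PMLGH exceeded GelMA by 0.18 with no overlap, and for C1r alone by 0.08 with overlap. Between PMLGH and GelMA all 5 genes differed in the same direction, by 0.26 to 0.49 on the log2 scale. Per unit of length the mean C1q chain exceeded the mean of C1r and C1s by a factor of 8.95 ± 0.40 (SD, n = 3) in Model, 3.92 ± 0.23 in GelMA and 3.61 ± 0.22 in PMLGH.

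**Figure D2:**
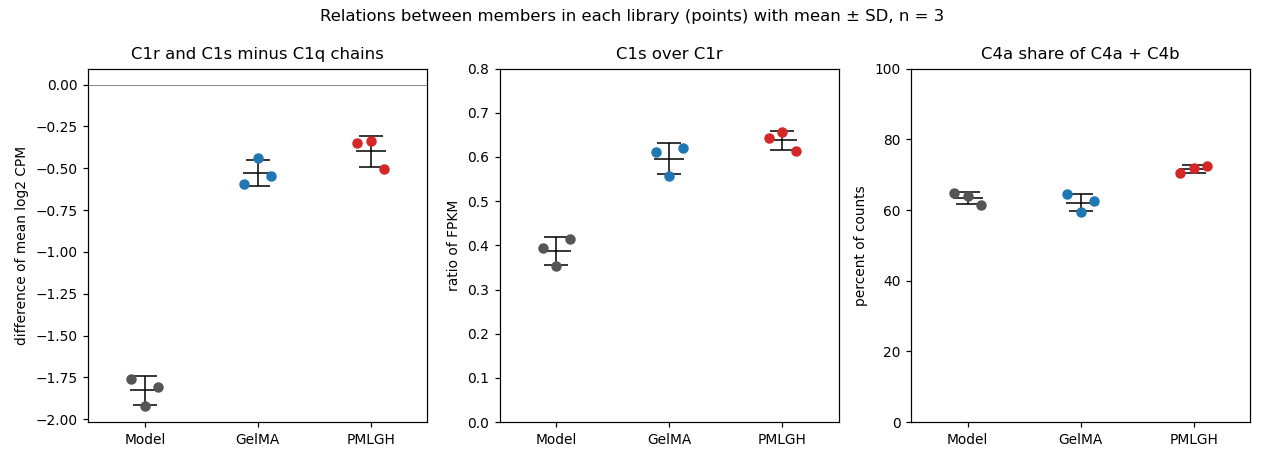
Left, mean log2 CPM of C1r and C1s minus that of the C1q chains; middle, ratio of C1s to C1r in FPKM; right, C4a as a percent of the C4a and C4b counts, each by group. Points are libraries and bars are the mean ± SD (n = 3). In the left panel Model sits at -1.83, GelMA at -0.53 and PMLGH at -0.40; in the right panel PMLGH stands apart at 71.6%.

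Markers of the cells known to make these proteins moved with the groups as well, and in bulk tissue a change in the number of such cells and a change in RNA per cell cannot be told apart. Of 12 fibroblast and stromal markers, 11 rose in PMLGH against Model and 11 in GelMA against Model, and none fell (edgeR, adjusted p under 0.05). Of all tested genes 15.7% rose and 11.9% fell in PMLGH against Model, and 12.7% rose and 9.88% fell in GelMA against Model. In PMLGH against GelMA 1.80% rose and 1.64% fell. The counts of the other cell type markers stand against these same shares. None of the 12 was at 0. Their summed level was 15078 to 18016 CPM in Model, 30648.5 to 34539 CPM in GelMA and 35434 to 40922 CPM in PMLGH, so that no group overlapped with another. Relative to the mean log2 CPM of these markers, C1r and C1s together stood at -2.03 ± 0.04 (SD, n = 3) in Model, -1.71 ± 0.07 in GelMA and -1.53 ± 0.09 in PMLGH. The mean of C1r and C1s was thus further above Model than the marker mean was, by 0.31 in GelMA and 0.50 in PMLGH on the log2 scale. The marker mean itself was above Model by 0.86 in GelMA and 1.11 in PMLGH. C1s, at 1.48 and 1.98, exceeded it in both groups. C1r, at 0.86 and 1.25, was level with it in GelMA and above it in PMLGH. The single stromal markers ran from -0.09 (Fbln1) to 1.72 (Postn) in GelMA and from 0.05 (Fbln1) to 2.62 (Postn) in PMLGH.

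Of 14 macrophage markers, 13 were tested, 11 rose in PMLGH against Model, 6 rose in GelMA against Model and none fell in either. Marco, a scavenger receptor, was below the filter and none of the markers had 0 counts in all libraries. Their summed level, most of it the lysozyme Lyz2, was 7878 to 10029.7 CPM in Model, 8004 to 8821 CPM in GelMA and 9832 to 10697 CPM in PMLGH, and Model overlapped with both other groups. Csf1r, the receptor that macrophages need to survive, averaged 240.5 CPM in Model, 293 in GelMA and 339 in PMLGH, while Cd163, a haemoglobin receptor of resident macrophages, averaged 209.8, 196 and 179.5 CPM. Relative to the mean log2 CPM of the markers, the C1q chains stood at 1.78 ± 0.11 (SD, n = 3) in Model, 1.27 ± 0.05 in GelMA and 1.26 ± 0.10 in PMLGH. C1q RNA was therefore lower against the mean of these markers in GelMA and PMLGH by 0.51 and 0.52 on the log2 scale, without overlap with Model. The size of this gap depends on the markers, which the mean weights alike. Their median log2 fold change was 0.20 in GelMA and 0.49 in PMLGH against Model. Single markers ran from -0.13 (Lyz2) to 2.04 (Timd4) in GelMA and from -0.23 (Cd163) to 2.05 (Timd4) in PMLGH. Timd4 averaged only 0.134 CPM in Model and 0.568 CPM in PMLGH. Osteoblast markers rose too, 7 of 8 in PMLGH and all 8 in GelMA against Model, with none falling and median log2 fold changes of 0.76 and 0.68. None of them was at 0, and their summed level was 1371 to 1972 CPM in Model, 3015 to 3101 CPM in GelMA and 2348 to 2905 CPM in PMLGH. Whether any of these sets of cells has a part in the differences of C1q, C1r or C1s was not tested.

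**Figure D3:**
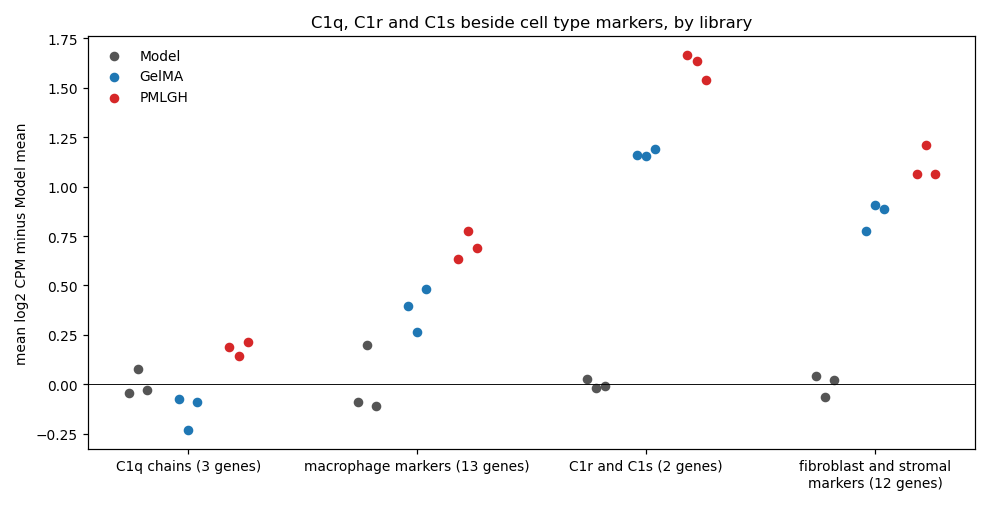
Mean log2 CPM of each gene set minus its mean in Model (y axis), for the C1q chains, 13 macrophage markers, C1r with C1s, and 12 fibroblast and stromal markers (x axis). Points are libraries, in colours for the groups. In GelMA and PMLGH the C1q points stay near the Model mean, below the macrophage markers, and the C1r and C1s points lie above the stromal markers.

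The C1q chains and the proteases also lie in separate gene clusters. In the RefSeq annotation of the rat assembly GRCr8, C1qb, C1qc and C1qa are neighbouring coding genes on chromosome 5, and C1r and C1s are neighbours on chromosome 4 beside C1rl, a protease gene related to C1r. C2 lies beside Cfb on chromosome 20, which also carries C4a and C4b, C3 lies on chromosome 9 and Serping1 on chromosome 3. These positions describe the reference alone, since the build behind the deposited counts is unknown. The 250 bases before the RefSeq start were present in that reference for 6 of the 10 genes. Those of C1qa, C1qb and C1r are printed, as C1qc and C1s were not among these genes. They run 5′ to 3′ along the gene, with matches to the searched motifs in capitals.
C1qa (chr5:154419934-154420183, - strand): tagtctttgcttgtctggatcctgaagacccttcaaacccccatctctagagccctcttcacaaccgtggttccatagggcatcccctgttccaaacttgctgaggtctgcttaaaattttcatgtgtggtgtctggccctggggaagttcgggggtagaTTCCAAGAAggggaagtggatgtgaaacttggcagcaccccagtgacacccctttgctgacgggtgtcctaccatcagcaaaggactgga
C1qb (chr5:154407828-154408077, - strand): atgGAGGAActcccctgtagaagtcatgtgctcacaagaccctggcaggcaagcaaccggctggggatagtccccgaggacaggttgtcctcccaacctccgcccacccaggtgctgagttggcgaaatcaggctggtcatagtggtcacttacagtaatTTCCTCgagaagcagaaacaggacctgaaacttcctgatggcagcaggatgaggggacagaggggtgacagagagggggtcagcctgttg
C1r (chr4:159098763-159099012, + strand): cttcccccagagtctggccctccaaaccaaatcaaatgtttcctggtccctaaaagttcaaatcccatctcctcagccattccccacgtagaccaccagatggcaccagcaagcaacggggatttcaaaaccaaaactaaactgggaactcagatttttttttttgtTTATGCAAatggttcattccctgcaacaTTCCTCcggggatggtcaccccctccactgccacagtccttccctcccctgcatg
The motifs, searched on both strands, were GAGGAA, the core bound by the myeloid factor PU.1, TTCNNNGAA for STAT factors, the interferon-stimulated response element, the NF-kB site, TGANTCA for AP-1, TTGCNNAA for C/EBP, CCAAT and TATAAA. C1qb held GAGGAA in 2 places, from -247 to -242 and, on the opposite strand, from -90 to -85, counted from the start of the gene. C1qa held TTCNNNGAA from -90 to -82. C1r held TTGCNNAA from -83 to -76 and GAGGAA from -55 to -50, both on the opposite strand. No matches overlapped. Among 33469 rat promoters of the same length 23.3% held GAGGAA, 7.67% held TTCNNNGAA and 9.22% held TTGCNNAA. The shares were 3.41% for the interferon-stimulated response element, 1.3% for the NF-kB site, 6.34% for TGANTCA, 34% for CCAAT and 12.9% for TATAAA, none of which matched in these 3 windows.

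C2, the protease that joins C4 to cut C3, was higher in each step between the groups. It was at 131, 142 and 123 CPM in Model 1, 2 and 5, at 193, 189 and 200.3 CPM in GelMA 2, 3 and 4, and at 265, 255 and 253 CPM in PMLGH 2, 3 and 4. The groups did not overlap, and C2 was 1.96-fold higher in PMLGH than in Model (log2 0.97 ± 0.06, SE), 1.47-fold higher in GelMA than in Model (log2 0.56 ± 0.06) and 1.33-fold higher in PMLGH than in GelMA (log2 0.41 ± 0.06).

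C4a and C4b, near-identical copies of the C4 gene, did not follow each other. C4a was at 52.1, 49.9 and 57.0 CPM in Model, at 67.1, 64.6 and 69.5 CPM in GelMA, and at 80.9, 80.6 and 83.8 CPM in PMLGH. C4b was at 28.3, 28.2 and 35.8 CPM in Model, at 37.1, 44.0 and 41.8 CPM in GelMA, and at 34.01, 31.3 and 31.8 CPM in PMLGH. C4a was lowest in Model and highest in PMLGH with no overlap, whereas C4b was highest in GelMA and overlapped between Model and PMLGH. The log2 fold changes of C4a were 0.34 ± 0.06 in GelMA against Model (SE), 0.63 ± 0.06 in PMLGH against Model and 0.29 ± 0.06 in PMLGH against GelMA, and those of C4b were 0.42 ± 0.10, 0.08 ± 0.10 and -0.34 ± 0.10. C4a made up 63.4% ± 1.8 of the counts of both copies (SD, n = 3) in Model, 62.1% ± 2.5 in GelMA and 71.6% ± 1.1 in PMLGH, and their sum was 83.7 ± 7.9, 108 ± 3.6 and 114 ± 1.9 CPM. Without Model 2 the C4b value of PMLGH against Model was -0.01. Skeletal muscle markers were also highest in GelMA, at a summed 2366 to 2934 CPM against 515 to 704 CPM in Model and 799.8 to 1117 CPM in PMLGH. All 8 of them rose in GelMA against Model, 7 rose in PMLGH against Model, all 8 fell in PMLGH against GelMA, and none was at 0 (edgeR, adjusted p under 0.05). Their part in the C4b values was not tested.

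The sources used here do not tell how the authors' counting assigned reads that match both copies, so the split between C4a and C4b is uncertain and their sum is the firmer value. Their promoters show how close the copies are and are printed for that reason, with motif matches in capitals.
C4a (chr20:4010107-4010356, + strand): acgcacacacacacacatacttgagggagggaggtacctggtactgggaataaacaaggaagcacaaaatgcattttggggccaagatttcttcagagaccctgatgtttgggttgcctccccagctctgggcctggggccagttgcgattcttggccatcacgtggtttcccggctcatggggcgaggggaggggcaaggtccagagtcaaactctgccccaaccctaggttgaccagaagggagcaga
C4b (chr20:4201729-4201978, + strand): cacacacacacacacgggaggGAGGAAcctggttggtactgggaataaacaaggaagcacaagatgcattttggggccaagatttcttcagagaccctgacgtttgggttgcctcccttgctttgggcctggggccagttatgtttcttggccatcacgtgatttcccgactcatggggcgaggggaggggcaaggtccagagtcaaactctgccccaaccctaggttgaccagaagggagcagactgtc
Aligned end to end with free end gaps, 229 of 241 paired bases were identical (95%). C4b held GAGGAA from -229 to -224, and the C4a window held none of the 8 motifs.

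C3, the component on which the pathways of complement meet, varied most between replicates in Model and in PMLGH. It was at 229, 359 and 254 CPM in Model 1, 2 and 5, at 296, 325 and 289.6 CPM in GelMA 2, 3 and 4, and at 319, 390.4 and 425 CPM in PMLGH 2, 3 and 4. Model 2 lay above the other Model libraries and above all GelMA libraries, and PMLGH 2 lay below GelMA 3, so the groups overlapped in each comparison. The SD was 24.7% of the mean in Model and 14.3% in PMLGH, against at most 14.2% for the other 9 genes in any group. The log2 fold change of PMLGH against Model was 0.43 ± 0.13 (SE), and it was 0.62 without Model 2. That of GelMA against Model was 0.11 ± 0.13, with 0.30 without Model 2 and -0.01 without Model 1. That of PMLGH against GelMA was 0.32 ± 0.13. Of the hepatocyte markers, Apoa2 and Fgg had 0 counts in all 9 libraries and Alb, albumin, averaged 0.0685 CPM in Model, 0 in GelMA and 0.0540 in PMLGH. Of 12 such markers 10 were in the table and 5 were tested, 1 of them, Ahsg, fell in PMLGH against Model, from a mean of 0.708 to 0.0811 CPM, and none passed the test in GelMA against Model. Their summed level, nearly all from Tf and Hp, ran from 1886 to 2781 CPM in Model, 2312 to 2525 CPM in GelMA and 2266 to 2980 CPM in PMLGH.

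Serping1, the inhibitor of C1r and C1s, was higher in GelMA and PMLGH than in Model, but by less than the proteases were. It was at 118, 113 and 121 CPM in Model, at 175, 160 and 162 CPM in GelMA, and at 219, 196 and 196 CPM in PMLGH, and the groups did not overlap. It was 1.41-fold higher in GelMA than in Model (log2 0.50 ± 0.06, SE), 1.73-fold higher in PMLGH than in Model (log2 0.79 ± 0.06) and 1.23-fold higher in PMLGH than in GelMA (log2 0.30 ± 0.06). Its FPKM divided by the summed FPKM of C1r and C1s was 1.65 ± 0.077 (SD, n = 3) in Model, 1.12 ± 0.064 in GelMA and 1.02 ± 0.044 in PMLGH. The lowest GelMA library, at 1.08, lay above the highest PMLGH library, at 1.06, so the 3 groups did not overlap in this ratio.

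**Figure D4:**
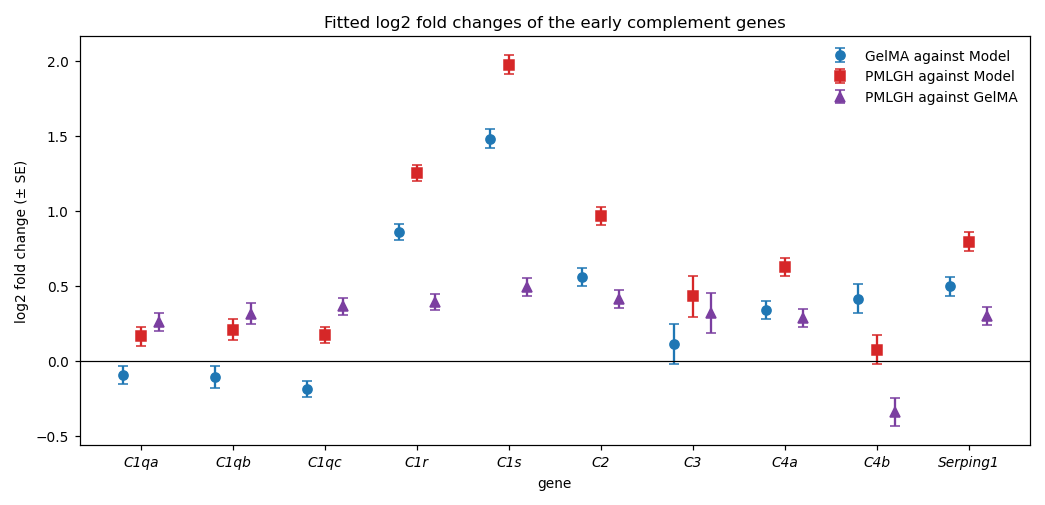
Fitted log2 fold change with its SE (y axis) of each early complement gene (x axis) in GelMA against Model, PMLGH against Model and PMLGH against GelMA. C1s reaches 1.98 in PMLGH against Model while the C1q chains lie between 0.16 and 0.21, and C4b lies below 0 in PMLGH against GelMA alone.

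As a count over the 10 genes, 8 were called higher and none lower in PMLGH against Model by edgeR, where 27.5% of all tested genes were called, 15.7% higher and 11.9% lower. In 8 genes the PMLGH libraries lay above all Model libraries, where 39.4% of all tested genes did not overlap, 21.1% higher and 18.4% lower, and 7 genes met both criteria. Of the 14 other settings run, C1qb was called in 5, C1qc in 4 and C3 in 8, and 5 genes were left without Model 1, Model 5 or PMLGH 4. C1r, C1s and C2 were called in each setting of each comparison.

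In GelMA against Model 6 were called higher and 1, C1qc, lower, where 22.6% of all tested genes were called, 12.7% higher and 9.88% lower. The same 7 genes did not overlap, where 36.6% of all tested genes did not, 19.8% higher and 16.8% lower. In PMLGH against GelMA 8 were called higher and none lower, where 3.44% of all tested genes were called, 1.80% higher and 1.64% lower. There 8 lay above without overlap and 1, C4b, below, where 23.7% of all tested genes did not overlap, 12.3% higher and 11.4% lower. The number called was 4 without GelMA 3 or PMLGH 2, 5 without PMLGH 4 and 10 without Model 2. The median log2 fold change of the 10 genes was 0.53, 0.38 and 0.32 in PMLGH against Model, in GelMA against Model and in PMLGH against GelMA, beside 0.02, 0.03 and 0.003 over all tested genes. As the genes were chosen on these contrasts, nothing is read from these shares.

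The genes whose profile over the 9 libraries was most like that of the members were sought among 9918 other genes of at least 10 CPM on average. Likeness was the root mean square difference of log2 CPM, each centred on its own mean. For C1r and C1s the nearest were Mmp2, a gelatinase (0.068), Lox, the lysyl oxidase (0.087), Col12a1, a collagen of fibril surfaces (0.098), Gxylt2, a xylosyltransferase (0.10), and Mmp14, a membrane-bound collagenase (0.10). Mmp2 averaged 227 CPM and was higher by 1.16 in GelMA and 1.66 in PMLGH against Model on the log2 scale. For the C1q chains the nearest were Tlr8, a receptor for RNA in endosomes (0.051), Tap1, a peptide transporter of antigen presentation (0.061), Sec11a, a subunit of the signal peptidase (0.065), Dnajc7, a co-chaperone (0.066), and Creld1 (0.066). Those of Tlr8 were -0.15 in GelMA and 0.16 in PMLGH against Model on the log2 scale. All these genes, Mmp2 included, were picked for likeness over the same libraries. That their fold changes resemble those of the members therefore follows from the choice and is no separate result. Among the members, the profile of C2 was 0.30 from that of C1r and C1s and 0.35 from that of the C1q chains. In the same order, that of Serping1 was 0.36 and 0.30 away, that of C4a 0.44 and 0.23, that of C3 0.56 and 0.22, and that of C4b 0.63 and 0.32.

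The rest of the complement system was listed from general knowledge, with earlier results of these data known. Genes outside it whose proteins carry a C1q-like head, the C1q-domain relatives, were listed with it. The 7 lists held 73 genes, of which 65 were in the table and 48, among them 14 relatives, were tested. The relatives gave 8 of the rises and 1 of the falls below in PMLGH against Model, 7 and 2 in GelMA against Model, and 1 and 0 in PMLGH against GelMA. In PMLGH against Model 21 of the 48 listed genes tested rose, 4 fell and 23 did not pass (edgeR, adjusted p under 0.05). Their median log2 fold change was 0.35, where 15.7% of all tested genes rose and 11.9% fell. In GelMA against Model 15 rose, 4 fell and 29 did not pass, with a median of 0.21, where 12.7% of all tested genes rose and 9.88% fell. In PMLGH against GelMA 3 rose, 2 fell and 43 did not pass, with a median of 0.13, where 1.80% of all tested genes rose and 1.64% fell. The counts of the single lists that follow stand against these same shares. Those that rose there were Colec12, Ptx3 and C1qtnf6, and those that fell were C7 and Cr2. The call of Colec12 was lost without any single GelMA or PMLGH library, and that of Cr2 without GelMA 3, GelMA 4 or any single PMLGH library. The number called in PMLGH against GelMA was 11 without Model 2 and 2 or 3 without GelMA 3, GelMA 4 or any single PMLGH library.

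Recognition and protease genes of the lectin pathway, which starts from sugars instead of antibody, moved in both directions. Of 5 tested, 2 rose and 2 fell in PMLGH against Model. Masp1, the counterpart of C1r in this pathway, was at 6.02, 2.34 and 4.31 CPM in Model, at 9.42, 10.97 and 9.21 CPM in GelMA and at 11.6, 12.2 and 10.1 CPM in PMLGH, with Model below both other groups. It rose by 1.23 ± 0.23 in GelMA (edgeR adjusted p = 0.0014) and by 1.42 ± 0.23 in PMLGH against Model (adjusted p = 0.000336) on the log2 scale. Colec12, a scavenger receptor with a collagen-like stalk, rose by 0.58 ± 0.07 (adjusted p = 2.5e-05) and by 0.84 ± 0.07 (adjusted p = 3.5e-07). The ficolins, secreted pattern receptors with a collagen-like stalk, went the other way. Fcna fell by 0.59 ± 0.10 in GelMA (adjusted p = 0.000666) and by 0.56 ± 0.10 in PMLGH (adjusted p = 0.000775) against Model. Fcnb fell by 0.25 ± 0.08 in PMLGH against Model (adjusted p = 0.0297), a call lost without PMLGH 2 or PMLGH 3.

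The alternative pathway starts on surfaces without antibody. Cfb, the counterpart of C2 in this pathway and its neighbour in the genome, rose in PMLGH against Model by 0.67 ± 0.15 (edgeR adjusted p = 0.0037), from 5.78 ± 1.3 to 9.22 ± 0.13 CPM (SD, n = 3). Cfi, the protease that cuts active C3b, rose as well (adjusted p = 0.00047), but from 0.0192 ± 0.017 to 0.623 ± 0.17 CPM, a level below that asked of named genes, and it is named after its values were seen. So is Cfd, the protease that cuts Cfb, which fell by 0.27 ± 0.06 in GelMA against Model (adjusted p = 0.0077).

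Of the terminal components, which form the pore in target membranes, C6 and C7 rose in PMLGH against Model and the other 2 of 4 tested did not pass. C7 rose by 0.78 ± 0.08 in GelMA (edgeR adjusted p = 9.4e-06) and by 0.41 ± 0.08 in PMLGH (adjusted p = 0.0016) against Model. Against GelMA it fell by 0.37 ± 0.08 in PMLGH (adjusted p = 0.0185), a call lost without GelMA 3, GelMA 4, PMLGH 3 or PMLGH 4. C6 rose by 0.36 ± 0.09 in PMLGH against Model (adjusted p = 0.0068). None of the 9 tested genes listed as regulators, among them the membrane-bound Cd55 and Cd59, passed by edgeR in any of the 3 comparisons. The list is not all of complement regulation. It holds C1rl, a protease gene, but neither Serping1, a member, nor Cfi, listed with the alternative pathway, and both were higher in PMLGH than in Model. At an unadjusted p under 0.05 there were 4 in PMLGH against Model, 1 in GelMA against Model and 0 in PMLGH against GelMA, and DESeq2 called 1, 0 and 0. The 1 gene that DESeq2 called was Vtn, which encodes vitronectin. The median log2 fold changes of the regulators were 0.20, 0.08 and 0.12 in this order.

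Among 10 complement receptors 5 rose and 1 fell in PMLGH against Model. C3ar1, the receptor of the C3a fragment, rose by 0.68 ± 0.12 (edgeR adjusted p = 0.000621), from 12.2 ± 1.5 to 19.6 ± 1.8 CPM (SD, n = 3). Itgam, the alpha chain of complement receptor 3, rose by 0.59 ± 0.15 (adjusted p = 0.0089), although its libraries overlapped. Cd93, first described as a C1q receptor, rose by 0.25 ± 0.06 (adjusted p = 0.0047). C5ar1, the receptor of C5a, rose by 0.38 ± 0.11 (adjusted p = 0.023), with overlapping libraries, a call lost without Model 1, Model 5, PMLGH 3 or PMLGH 4. Cr2, a receptor of B cells, fell by 0.42 ± 0.13 (adjusted p = 0.024), a call lost without Model 5 or PMLGH 2. Against GelMA it fell by 0.53 ± 0.13 in PMLGH (adjusted p = 0.0283). Of 6 lymphocyte markers, all tested and none at 0, 4 fell and none rose in PMLGH against GelMA, with a median log2 fold change of -0.64, and 1 rose and 1 fell in PMLGH against Model, with a median of -0.32. Their summed level was 212 to 341 CPM in Model, 299 to 375 CPM in GelMA and 197 to 229.5 CPM in PMLGH, and their part in the Cr2 values was not tested. The remaining gene that rose, named after its values were seen, was Itgb2, the beta chain that pairs with Itgam, by 0.34 ± 0.11 (adjusted p = 0.0303) with overlapping libraries.

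Ptx3, a pentraxin that C1q binds, was the single tested gene of the C1q ligands and rose in all 3 comparisons. It was at 4.98, 5.21 and 4.29 CPM in Model 1, 2 and 5, at 6.33, 8.10 and 7.65 CPM in GelMA 2, 3 and 4, and at 13.8, 13.5 and 11.6 CPM in PMLGH 2, 3 and 4, with no overlap between groups. The log2 fold changes were 0.61 ± 0.14 in GelMA against Model (edgeR adjusted p = 0.0059), 1.43 ± 0.14 in PMLGH against Model (adjusted p = 3.0e-06) and 0.82 ± 0.13 in PMLGH against GelMA (adjusted p = 0.0023).

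Genes outside the complement system whose proteins carry a C1q-like head also moved. Of 14 tested, 8 rose and 1 fell in PMLGH against Model, and 7 rose and 2 fell in GelMA against Model. C1qtnf6 rose by 0.92 ± 0.07 in GelMA (edgeR adjusted p = 3.8e-07) and by 1.45 ± 0.07 in PMLGH (adjusted p = 1.9e-09) against Model, and by 0.53 ± 0.07 in PMLGH against GelMA (adjusted p = 0.000338). C1qtnf3, which is known from cartilage and growing bone, rose by 1.83 ± 0.28 and 2.42 ± 0.28 in GelMA and PMLGH against Model (adjusted p = 0.000281 and 1.6e-05). C1qtnf5 rose by 1.11 ± 0.11 and 1.30 ± 0.11 (adjusted p = 6.0e-06 and 7.1e-07), and Emilin1, a glycoprotein of elastic fibres, by 0.38 ± 0.05 and 0.56 ± 0.05 (adjusted p = 0.000159 and 2.9e-06). Mmrn1, a protein of platelets and endothelium, fell by 0.50 ± 0.07 and 0.42 ± 0.07 (adjusted p = 7.6e-05 and 0.000231). The other gene that fell in GelMA against Model was Cbln2, a synaptic organiser, by 0.39 ± 0.09 (adjusted p = 0.0055), named after its values were seen.

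**Figure D5:**
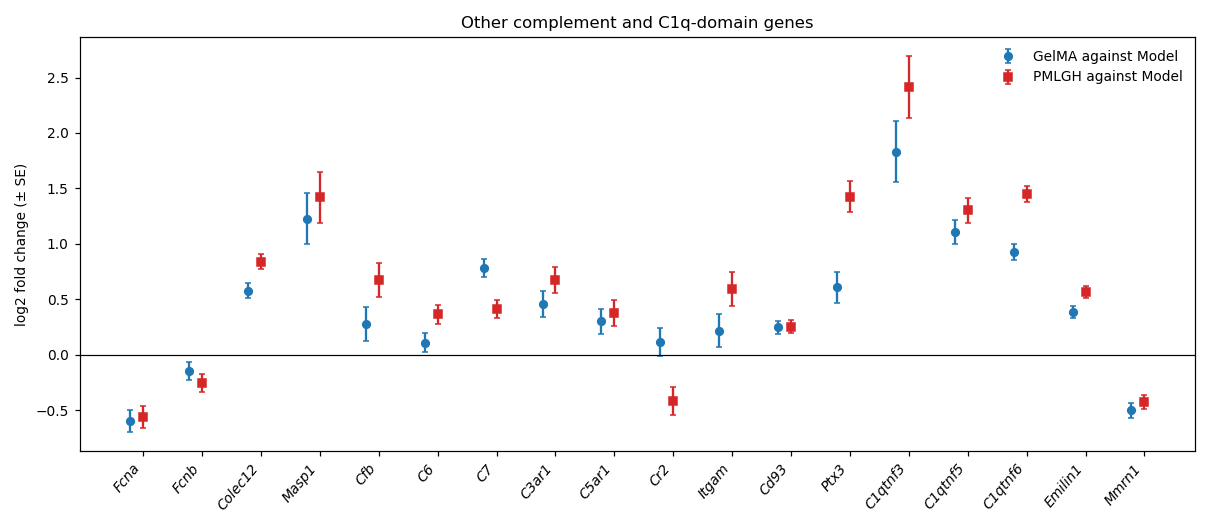
Fitted log2 fold change with its SE (y axis) of other complement genes and C1q-domain relatives described in the text (x axis), in GelMA against Model and PMLGH against Model, which share the Model libraries. Masp1, Ptx3 and C1qtnf3, C1qtnf5 and C1qtnf6 exceed 1, and Fcna, Fcnb, Cr2 and Mmrn1 lie below 0, in PMLGH against Model.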

How the data were processed

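Both deposited tables were used. The deposited counts, 1 row per gene symbol, are raw: the values are whole numbers and the library totals differ. The deposited FPKM table holds the authors' FPKM, and for all 22798 genes with counts each FPKM equalled the count over the library total and 1 length per gene (relative tolerance 0.0001). Per the submitters' processing notes DESeq2 and R 3.2.0 were used, with no role given; the aligner, counter, strandedness and genome build remain not given in the sources used here.

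Genes were filtered with filterByExpr, scaled by TMM and fitted with 1 mean per group over all 9 libraries by edgeR 4.0.16 (quasi-likelihood, two-sided, R 4.3.3). P-values were adjusted by Benjamini-Hochberg over all 16816 genes tested, with a threshold of 0.05. The SE is the log2 fold change over the square root of F. Log2 CPM used a prior count of 2. Precision rests on 3 libraries per group. The fit was tested on simulated data. Alternatives were RLE and upper-quartile scaling, no filter, DESeq2 1.42.0, the 2 groups alone, a replicate block and each library left out.

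The members, the lists and the alternatives were chosen with earlier results of these data known. Of each list up to 5 genes of smallest p in PMLGH against Model, with a mean of at least 1 CPM, are named, except where stated; list members without a row were not analysed here, and 1 result of the lists is not reported here. RefSeq GRCr8 matched all 10 symbols.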

Additional observations from a re-analysis of the deposited data

How the results depend on the processing

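The log2 level of C1r and C1s minus that of the C1q chains was below 0 in each library. Its difference between groups was recomputed with each library left out and on 2 FPKM scales, and kept its direction throughout. The difference was 1.38 to 1.48 in PMLGH against Model and 1.25 to 1.34 in GelMA against Model when a library was left out. In PMLGH against GelMA it was 0.095 to 0.18. On both FPKM scales it moved by less than the replicate SD. The other alternatives were not run for it. Of 430 refitted log2 fold changes of the 10 genes, 428 moved by less than the SD between replicates. The other 2 were those of C4a against Model without Model 2, at 0.55 for PMLGH and 0.27 for GelMA. Leaving out 1 of 3 libraries can move a group mean by only part of the SD of that group. For those refits a small move was thus largely set in advance, and nothing is read from the count.

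Counts of calls depended more on the settings, and the cause was not tested. In PMLGH against Model the members called were 5 when the 2 groups were fitted alone and 5 to 8 with a library left out. In PMLGH against GelMA the members called were 4 to 10 with a library left out. All genes called there were 578, with 909 under DESeq2, 1059 with the 2 groups alone and 303 to 1050 with a library left out. The other complement genes and C1q-domain relatives called there were 5 together, with 10 for the 2 groups alone and 2 to 11 with a library left out.

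GelMA and PMLGH share the replicate numbers 2, 3 and 4. Same-numbered libraries did not deviate together (correlations of 0.014, 0.027 and -0.0083 over genes), and GelMA 4 did not correlate best with its own number, so the numbers are not taken as pairs. With the replicate block 1037 genes, 10 members and 10 other complement genes or C1q-domain relatives were called in PMLGH against GelMA. No paired analysis was possible for the comparisons with Model because Model shares only the number 2 with the other groups.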

Other observations

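Several complement genes known mainly from liver were close to absent and were below the filter on low counts. Over all 9 libraries the mannose-binding lectins Mbl1 and Mbl2 had 27 and 15 counts, Masp2, the protease that cuts C4 in the lectin pathway, had 19, and the pore components C9 and C8b had 2 and 0. Crp, a pentraxin of the acute phase, had 64 counts.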
